A study of Homo sapiens with 4 samples.

Results

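Serine and folate metabolism were described through 10 enzyme genes, selected by gene symbol: the serine synthesis enzymes PHGDH, PSAT1 and PSPH, the cytosolic folate enzymes SHMT1 and MTHFD1, and the mitochondrial folate enzymes SHMT2, MTHFD2, MTHFD2L, MTHFD1L and ALDH1L2. All 10 were found, each once, among the 58735 genes of the table. RNA was sequenced from OVCAR8, an established line of human ovarian cancer cells, as 2 libraries of cells given a scrambled short hairpin (shCON) and 2 of cells given hairpins against FAM49B (shFAM49B). Both groups received GIPZ lentiviral hairpin vectors. The labels' protocols describe transient lipofection with harvest after 36 h, while the design text calls the knockdown stable, and the hairpin sequences were not analysed here.

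The pathway begins in glycolysis. PHGDH draws off phosphoglycerate, PSAT1 and PSPH complete the route to serine, and serine then hands a carbon unit to tetrahydrofolate. This exchange runs in the cytosol and, in parallel, in mitochondria, where formate is made and exported for the building of purines and thymidylate. Proliferating tumour cells are known to draw heavily on the mitochondrial arm, and several of the enzymes are known targets of the stress-induced transcription factor ATF4.

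Recovered reads numbered 15639559 and 16875353 in shCON and 16288871 and 16290200 in shFAM49B. Values are FPKM as deposited, reads per kilobase of gene scaled to depth, and means carry the SD over n = 2 libraries. FAM49B, the targeted gene, stood at 7.41 and 7.60 FPKM in shCON and at 1.06 and 1.02 FPKM in shFAM49B (limma adjusted p = 0.00054). Of 9 ovarian and epithelial markers 4 averaged at least 1 FPKM over both groups together (WT1, EPCAM, KRT8 and KRT18). In shFAM49B alone WT1 averaged 0.843 FPKM and EPCAM 0.237 FPKM (5 and 13 reads). PAX8 reached at most 0.112 FPKM, MSLN 0.232, KRT7 0.0724, MUC16 0.00305 and CDH6 0.0054. The summed level of the 9 markers was 71.7 to 74.3 FPKM in shCON and 62.6 to 63.0 FPKM in shFAM49B. EPCAM, which averaged at least 1 FPKM only through its shCON level (2.95 FPKM), fell 12.4-fold in mean FPKM. On the log2(FPKM + 1) scale, which shrinks changes at low levels, its change was -1.68 (limma adjusted p = 0.00224). Summed markers of leukocytes and endothelium stayed at or below 0.160 FPKM in each library, and those of fibroblasts measured 5.79 to 6.37 FPKM in shCON and 6.09 to 6.65 in shFAM49B. Most of the fibroblast sum was COL1A1, at 5.36 and 5.83 FPKM in shCON and 5.91 and 6.55 FPKM in shFAM49B. The other fibroblast markers DCN, LUM and PDGFRB did not exceed 0.0646, 0.270 and 0.291 FPKM. The part of these markers in the enzyme results was not tested. In such bulk RNA, fewer cells of a type and less RNA per cell cannot be told apart.

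Promoter sequences in RefSeq (GRCh38.p14) matched 7 of the 10 genes, all but PSPH, SHMT2 and ALDH1L2, in 11 windows that end at an annotated start, and the 250 bases before the start were searched. Stretches are shown for genes whose levels are compared next, on the gene's strand, with motif matches in capitals. The PSAT1 window (chr9:78296875-78297124) lies outside annotated exons and is shown whole because it holds 3 copies of CCAAT. The other stretches shown lie inside annotated exons of any gene. Exons cover 250 window bases in MTHFD1, 249 in MTHFD2, 219 in PHGDH and 55 in the MTHFD1L window with the stretch shown. The PHGDH, MTHFD1 and MTHFD1L windows begin within the annotated span of their own gene, not before it. The 30-base stretches of PHGDH (chr1:119711853-119711882) and MTHFD2 (chr2:74198421-74198450) share the letters TCCAATCAAAAG, and those of MTHFD1 (chr14:64388323-64388352) and MTHFD1L (chr6:150866346-150866375) hold the E-box CACGTG and the element TGATGNAA.

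PSAT1: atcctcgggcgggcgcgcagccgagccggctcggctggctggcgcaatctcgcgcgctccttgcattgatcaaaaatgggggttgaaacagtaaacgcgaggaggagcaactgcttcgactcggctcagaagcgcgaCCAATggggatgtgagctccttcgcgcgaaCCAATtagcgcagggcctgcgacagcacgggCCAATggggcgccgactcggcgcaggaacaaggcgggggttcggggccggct

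PHGDH: gtatttccgTCCAATCAAAAGgagactgta

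MTHFD2: tcttctggcTCCAATCAAAAGcagggctct

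MTHFD1: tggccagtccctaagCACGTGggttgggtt

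MTHFD1L: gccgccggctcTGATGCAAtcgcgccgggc

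Both strands were searched. TGATGNAA, an element of ATF4 with C/EBP partners, was matched in MTHFD1L only, at 1 site that falls in 2 overlapping windows, against 3.14% of 35116 windows of the same length over all genes. CACGTG, an element of MYC and related factors, was matched in MTHFD1 and MTHFD1L, in 3 of the 11 windows (6.34% of all windows). CCAAT, a binding element of NF-Y, was matched in 6 of the 7 genes, all but MTHFD2L. That was 8 of the 11 windows (32.0% of all windows). For both motifs the overlapping MTHFD1L windows hold the same site. TCCAATCAAAAG, the longest run around a CCAAT that the PHGDH and MTHFD2 windows share, was matched in those 2 and in 6 of the 35116 windows in all (0.0171%). CCAAT and this run were chosen after the windows had been read, so their presence in these genes is no test, and a match is a description of letters, not of binding.

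Within serine synthesis the first enzyme moved opposite to the other two. PHGDH (ENSG00000092621, chromosome 1, 119648411 to 119744226, plus strand, GRCh38) measured 55.5 and 57.9 FPKM in shCON and 88.5 and 94.1 FPKM in shFAM49B. Both shFAM49B libraries lay well above both controls, and PHGDH rose 1.61-fold, from 56.7 ± 1.68 to 91.3 ± 3.96 FPKM. On the log2(FPKM + 1) scale its change was 0.68 (SE 0.0601, limma adjusted p = 0.00218). PSAT1, the transaminase of the second step (ENSG00000135069, chromosome 9, 78297143 to 78330093, plus strand), measured 182 and 188 FPKM in shCON and 134 and 138 FPKM in shFAM49B. It fell 1.36-fold, from 185 ± 4.10 to 136 ± 3.17 FPKM (log2 fold change -0.44, SE 0.0553, limma adjusted p = 0.00396). PSPH, the phosphatase that releases serine (ENSG00000146733, chromosome 7, 56011051 to 56051604, minus strand), measured 22.1 and 25.0 FPKM in shCON against 15.8 and 16.6 FPKM in shFAM49B. It fell 1.45-fold (log2 fold change -0.51, SE 0.0782, limma adjusted p = 0.00675). All 3 calls were kept under each of the 13 alternatives, with log2 fold changes of 0.37 to 0.72 for PHGDH, -0.88 to -0.42 for PSAT1 and -0.77 to -0.42 for PSPH.

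**Figure D1:**
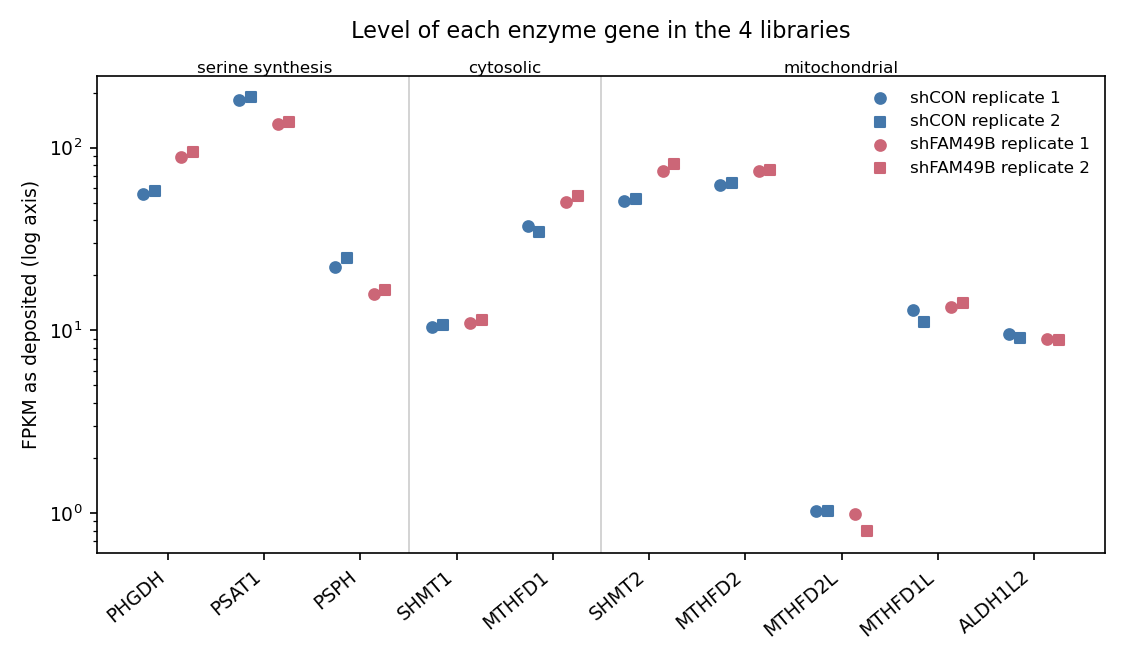
FPKM of the 10 enzyme genes in each library on a log axis, with shCON in blue and shFAM49B in red, circles for replicate 1 and squares for replicate 2. PHGDH, MTHFD1 and SHMT2 lie higher in shFAM49B, PSAT1 and PSPH lie lower, and MTHFD2L is the lowest gene at 0.796 to 1.03 FPKM.

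Of the 2 cytosolic folate enzymes, MTHFD1 rose and SHMT1 did not pass. MTHFD1, a trifunctional enzyme that interconverts formate, formyl-, methenyl- and methylene-tetrahydrofolate (ENSG00000100714, chromosome 14, 64388031 to 64463457, plus strand), measured 37.0 and 34.3 FPKM in shCON and 50.3 and 54.6 FPKM in shFAM49B. The libraries did not overlap, and the mean was 1.47-fold higher (log2 fold change 0.54, SE 0.0700, limma adjusted p = 0.00427). That call was kept under all 13 alternatives (0.30 to 0.60). SHMT1, which splits serine into glycine and a folate-bound carbon (ENSG00000176974, chromosome 17, 18327860 to 18363563, minus strand), measured 10.5 and 10.7 FPKM in shCON and 11.0 and 11.3 FPKM in shFAM49B. Its log2 fold change of 0.07 (SE 0.0590, limma adjusted p = 0.373) became -0.16 as TPM and -0.14 when FPKM was recomputed from the recovered reads.

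Of the 5 mitochondrial enzymes, SHMT2 and MTHFD2 rose, MTHFD1L and ALDH1L2 did not pass, and MTHFD2L was below the filter for testing. SHMT2, the mitochondrial counterpart of SHMT1 (ENSG00000182199, chromosome 12, 57229327 to 57234935, plus strand), measured 51.2 and 52.1 FPKM in shCON and 74.8 and 81.1 FPKM in shFAM49B. It rose 1.51-fold to 77.9 ± 4.46 FPKM (log2 fold change 0.58, SE 0.0622, limma adjusted p = 0.00292) and kept its call under all 13 alternatives (0.27 to 0.64). MTHFD2, a dehydrogenase and cyclohydrolase known for high levels in embryonic and tumour tissue (ENSG00000065911, chromosome 2, 74198562 to 74217565, plus strand), measured 62.5 and 64.2 FPKM in shCON and 74.7 and 75.8 FPKM in shFAM49B. Its rise was 1.19-fold (log2 fold change 0.24, SE 0.0524, limma adjusted p = 0.0174), and MTHFD2 did not pass as TPM (0.0034, adjusted p = 0.960), relative to recovered reads (0.02, adjusted p = 0.726), or after quantile normalization, where it was -0.10 (adjusted p = 0.116). Without any 1 of the 4 libraries its adjusted p was 0.0534 to 0.0872.

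MTHFD1L, the mitochondrial synthetase that yields formate (ENSG00000120254, chromosome 6, 150865549 to 151101887, plus strand), measured 12.9 and 11.1 FPKM in shCON and 13.5 and 14.2 FPKM in shFAM49B. The 2 controls differed more from each other than the higher one did from the nearer shFAM49B library, and the log2 fold change of 0.19 did not pass (SE 0.0858, limma adjusted p = 0.134). It passed with voom on recovered reads (0.21, adjusted p = 0.0387), while its log2 fold change became -0.04 as TPM and -0.02 on recovered reads. ALDH1L2, which oxidises formyl-tetrahydrofolate to CO2 (ENSG00000136010, chromosome 12, 105019784 to 105084577, minus strand), measured 9.57 and 9.13 FPKM in shCON and 8.93 and 8.82 FPKM in shFAM49B. Its log2 fold change was -0.07 (SE 0.0620, limma adjusted p = 0.419), against -0.31 as TPM (adjusted p = 0.0182) and -0.27 relative to recovered reads (adjusted p = 0.0209). MTHFD2L, a relative of MTHFD2 (ENSG00000163738, chromosome 4, 74114174 to 74303099, plus strand), stood at 1.03 FPKM in both controls and at 0.983 and 0.796 FPKM in shFAM49B, from 117 to 187 reads per library. Its mean of 0.959 FPKM over the 4 libraries lay just under the filter of 1 FPKM, and the fit without a filter gave a log2 fold change of -0.10 (adjusted p = 0.652).

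Of the 9 enzymes tested, 4 rose, 2 fell and 3 did not pass, where 26.4% of the 13775 tested genes rose, 15.8% fell and 42.2% changed in either direction (limma adjusted p under 0.05). The 2 groups did not overlap for any of the 10 genes (shFAM49B above in 6 and below in 4), while 74.7% of all tested genes showed no overlap (43.1% above and 31.6% below). The median log2 fold change of the 9 genes was 0.19, beside 0.05 over all tested genes. Both medians depended on how the libraries were scaled. The enzymes' median was -0.04 as TPM beside -0.17 over all tested genes, -0.02 on recovered reads beside -0.13, and 0.0067 after quantile normalization beside 0.02. Fold changes of all tested genes shifted by a median of -0.24 on the TPM scale and by -0.19 on recovered reads. With TPM and with recovered reads, 3 enzymes rose (PHGDH, MTHFD1 and SHMT2) and 3 fell (PSAT1, PSPH and ALDH1L2). Over all tested genes 11.6% rose and 31.7% fell as TPM, and 12.5% rose and 30.3% fell on recovered reads, so the share of enzymes that fell was near the background there.

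**Figure D2:**
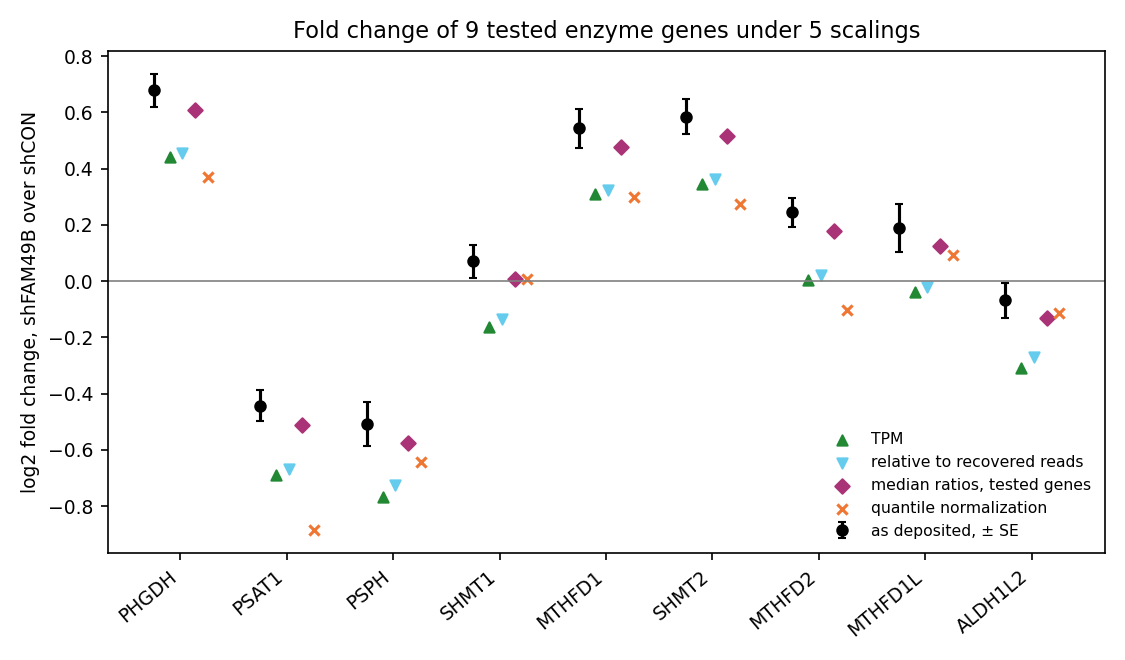
Log2 fold change (shFAM49B over shCON) of the 9 tested enzyme genes, as deposited (black, ± SE of the limma fit) and under 4 other scalings (coloured symbols). PHGDH, MTHFD1 and SHMT2 stay above 0 and PSAT1 and PSPH below 0 under all 5 scalings, while MTHFD2, MTHFD1L and SHMT1 cross 0.

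Ratios between 2 genes inside a library cancel any factor between libraries. The SHMT2 to SHMT1 ratio of FPKM was 4.88 and 4.89 in shCON and 6.80 and 7.16 in shFAM49B, 1.43-fold higher with no overlap. Its log2 difference of 0.52 was 0.27 after quantile normalization, which does not scale a library by 1 factor. For the next steps, the ratios of the mitochondrial enzymes to cytosolic MTHFD1 were lower. The MTHFD1L to MTHFD1 ratio was 0.349 and 0.324 in shCON and 0.268 and 0.259 in shFAM49B, 1.28-fold lower (log2 difference -0.35, and -0.21 after quantile normalization). The MTHFD2 to MTHFD1 ratio was 1.69 and 1.87 in shCON against 1.48 and 1.39 in shFAM49B, 1.24-fold lower, with MTHFD1 1.47-fold and MTHFD2 1.19-fold higher in FPKM. MTHFD2 measured 60.9 and 62.4 times MTHFD2L in shCON and 76.0 and 95.2 times in shFAM49B, a ratio that rests on the low MTHFD2L. The exact permutation test (2-sided) gave p = 0.333 for each of these 4 ratios, which is the smallest value that 2 libraries against 2 allow.

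Ratios within serine synthesis were added after the values had been seen and are given without a test. PHGDH stood at 0.304 and 0.308 times PSAT1 in shCON and at 0.662 and 0.681 times in shFAM49B, a 2.19-fold difference. PHGDH against PSPH was 2.52 and 2.32 in shCON and 5.60 and 5.66 in shFAM49B, 2.33-fold higher. The PSAT1 to PSPH ratio was 8.26 and 7.53 in shCON and 8.47 and 8.32 in shFAM49B, a difference of 0.09 on the log2 scale beside a within-group SD of 0.07, and of -0.21 after quantile normalization.

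**Figure D3:**
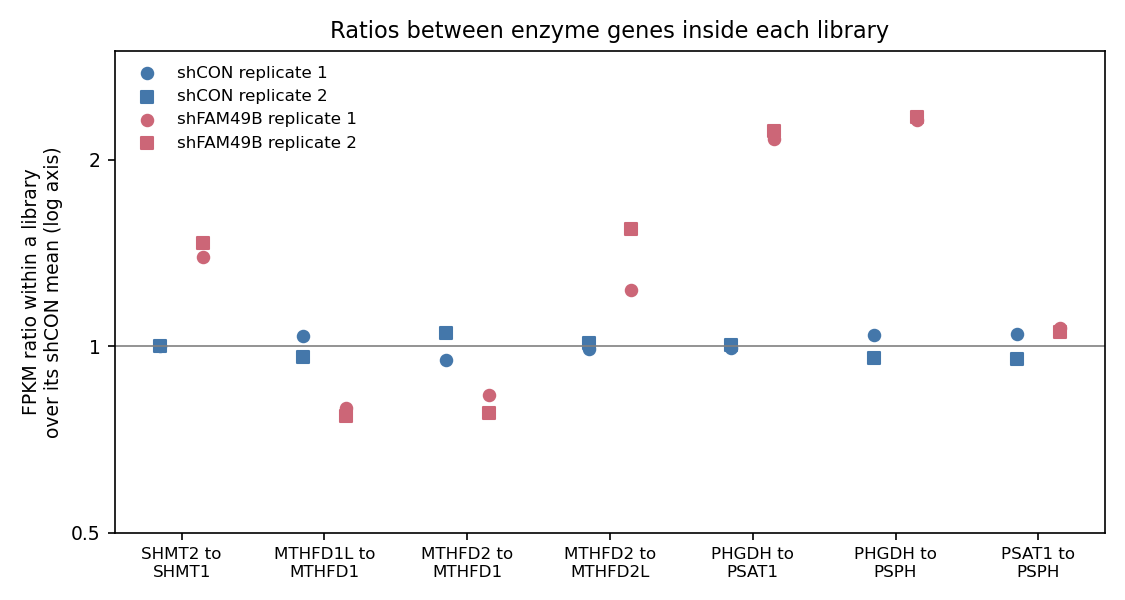
FPKM ratio of 2 enzyme genes inside each library, divided by the mean ratio of the shCON libraries, on a log axis (blue shCON, red shFAM49B, circles replicate 1, squares replicate 2). The PHGDH ratios to PSAT1 and PSPH lie 2.19-fold and 2.33-fold above shCON, the SHMT2 to SHMT1 ratio 1.43-fold above, and the MTHFD1L and MTHFD2 ratios to MTHFD1 below it.

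Levels per kilobase placed PSAT1 first in both groups as deposited. In shCON the order of FPKM was PSAT1, MTHFD2, PHGDH, SHMT2, MTHFD1, PSPH, MTHFD1L, SHMT1, ALDH1L2 and MTHFD2L, and no 2 neighbours overlapped between their libraries. In shFAM49B, PHGDH came next after PSAT1, then SHMT2, and SHMT2 (74.8 and 81.1 FPKM) overlapped MTHFD2 (74.7 and 75.8 FPKM). These levels divide by the length of all annotated exons of a gene, which is 9217 bases for PHGDH against 2585 for its principal protein-coding transcript in GENCODE release 29, 3.57 times as long. The same quotient was 2.99 for MTHFD1, 2.95 for SHMT1, 1.91 for SHMT2 and 4.27 for MTHFD2L, but 1.09 for MTHFD2 and 1.00 for PSAT1. Dividing the recovered reads by the principal transcript instead placed PHGDH first in both groups, at 202 ± 5.97 in shCON and 326 ± 14.1 in shFAM49B, ahead of PSAT1 in shCON (185 ± 4.10) and of MTHFD1 in shFAM49B (157 ± 8.95). In shFAM49B, PSAT1 (136 ± 3.17) then ranked below PHGDH, MTHFD1 and SHMT2. These levels assume that all reads of a gene came from that transcript, which the table does not record. The fold between group means of a gene is the same on either length. Log2 fold changes of FPKM + 1 and the filter of 1 FPKM depend on the length. MTHFD2L, below that filter as deposited, stood at 4.39 in shCON and 3.80 in shFAM49B per kilobase of its principal transcript.

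**Figure D4:**
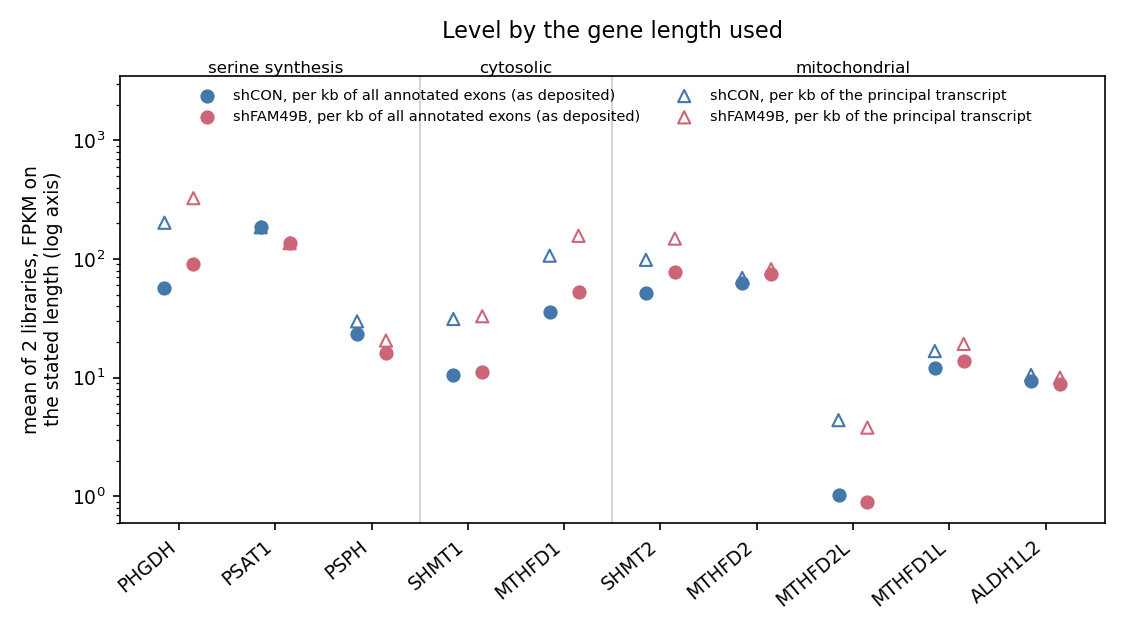
Mean level of each enzyme gene (n = 2 libraries) on a log axis, per kilobase of all annotated exons as deposited (filled circles) and per kilobase of the principal transcript (open triangles), with shCON in blue and shFAM49B in red. PHGDH moves from 56.7 to 202 in shCON, above PSAT1 at 185, while PSAT1 keeps its value.

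Other genes could share reads with the enzymes. The table holds 14 pseudogenes named after the enzymes, of which 9 were at 0 in all libraries. PSPHP1, a pseudogene of PSPH on the same chromosome, was at 0.454 and 1.66 FPKM in shCON and at 0 and 0.256 FPKM in shFAM49B, and the other 13 did not exceed 0.181 FPKM. Of 16 annotated genes that overlap an enzyme gene, 12 on the opposite strand, 2 averaged at least 1 FPKM: SMCR8 at the end of SHMT1 (8.33 and 8.62 FPKM in shCON, 6.26 and 6.59 in shFAM49B) and ZBTB25 opposite MTHFD1 (3.26 and 3.49, then 2.02 and 2.21). Both were lower in shFAM49B, and whether their reads entered the SHMT1 and MTHFD1 values was not tested. Whether counting used the strand is not given in the sources used here.

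Lists of neighbouring pathways were described by the same fit, in which 26.4% of all tested genes rose and 15.8% fell. Of 14 genes of folate uptake, reduction and other folate steps 9 were tested: 2 rose and 1 fell, with a median log2 fold change of 0.10 that was -0.13 as TPM, -0.11 on recovered reads and -0.02 after quantile normalization. SLC19A1, the reduced folate carrier, rose from 8.61 ± 0.287 to 11.6 ± 0.68 FPKM (limma adjusted p = 0.0106), but did not pass as TPM (adjusted p = 0.0846), on recovered reads (0.0670), without shCON replicate 2 (0.0612) or without shFAM49B replicate 2 (0.0554). FPGS, which adds the glutamate tail that retains folate in cells, rose 1.41-fold to 24.8 ± 2.22 FPKM, and DHFR2, a relative of dihydrofolate reductase, fell 1.64-fold to 2.55 ± 0.164 FPKM. Of 13 genes of purine synthesis, which takes up formyl groups from folate, 6 rose and 7 did not pass, with a median of 0.22. None fell in limma, also at an unadjusted p under 0.05 (0 genes) and with voom (0 genes, beside 20.3% of all tested genes). PRPS1, which makes the ribose donor, rose 1.56-fold to 139 ± 6.03 FPKM, IMPDH2 of guanine nucleotide synthesis 1.46-fold and PAICS 1.31-fold. After quantile normalization IMPDH2 and PAICS did not pass (adjusted p = 0.166 and 0.496), and PAICS did not pass as TPM (0.0547). The median was 0.01 as TPM, where 2 purine genes rose and 1 fell, and 0.08 after quantile normalization, where 1 rose. Over all tested genes 11.6% rose as TPM and 19.2% after quantile normalization.

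Of 10 tested genes of serine and glycine transport and use, 3 fell and 2 rose, a share near the 42.2% of all tested genes that changed, with a median of -0.04. As TPM 5 of them fell, where 31.7% of all tested genes did, with a median of -0.27. The 3 that fell as deposited all encode transporters: SLC38A2, which carries neutral amino acids, fell 1.97-fold from 59.9 ± 2.90 to 30.4 ± 2.88 FPKM, the glycine transporter SLC6A9 1.68-fold and the serine carrier SLC1A4 1.64-fold. SLC6A9 did not pass without shCON replicate 1 or 2 (adjusted p = 0.0501 and 0.0570). SFXN1, the mitochondrial serine carrier, rose 1.21-fold, and SRR, serine racemase, 1.31-fold; both were named after their values were seen, and with any 1 of the libraries left out no gene of the list rose in limma. Of 7 tested genes of the methionine cycle and transsulfuration, 4 fell and 1 rose (2 to 4 fell without 1 library, with 2 without shCON replicate 1 or shCON replicate 2), with a median of -0.30 that stayed below 0 under each scaling (-0.55 to -0.36). MAT2A, which makes the methyl donor S-adenosylmethionine, fell 2.66-fold from 41.0 ± 3.14 to 15.4 ± 0.0573 FPKM, and CTH, which makes cysteine, fell 1.71-fold. AHCY, which clears S-adenosylhomocysteine, rose 1.78-fold from 98.2 ± 2.56 to 174 ± 7.05 FPKM. The remaining falls were those of MTRR and MAT2B (1.45-fold and 1.25-fold), named after their values were seen. In the glycine cleavage system DLD rose 1.24-fold (limma adjusted p = 0.029), a call lost under 9 of 13 alternatives, all 4 scalings among them (adjusted p up to 0.560), while GLDC and GCSH did not pass (adjusted p = 0.407 and 0.775).

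**Figure D5:**
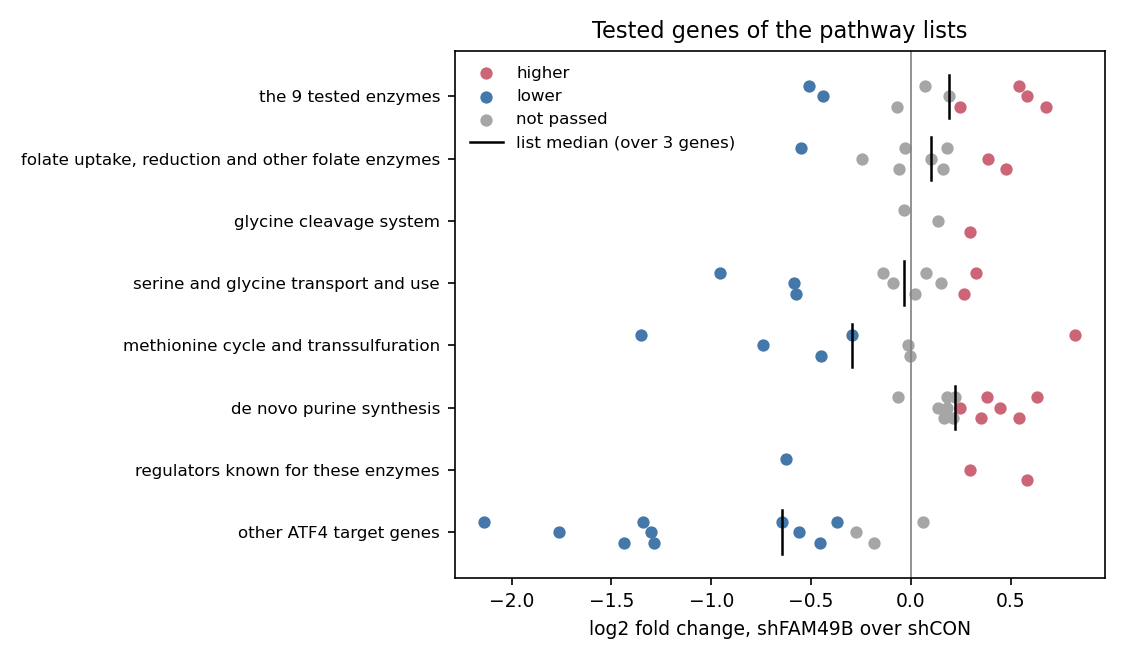
Log2 fold change (shFAM49B over shCON) of each tested gene in the 10-enzyme set and in 7 related lists, coloured by limma call (red higher, blue lower, grey not passed), with the list median as a bar for lists of more than 3 tested genes. The list of other ATF4 targets lies lowest, with a median of -0.65, and the enzymes spread on both sides of 0.

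Of 3 transcription factors known to control these enzymes, 2 rose and 1 fell at the transcript level. ATF4 measured 194 and 214 FPKM in shCON and 245 and 255 FPKM in shFAM49B, a rise of 0.30 on the log2 scale (limma adjusted p = 0.0233) that became a fall of -0.22 after quantile normalization (adjusted p = 0.0360) and did not pass as TPM (0.05, adjusted p = 0.543). Leaving out the first shCON library or either shFAM49B library also left ATF4 short of the threshold, with log2 fold changes of 0.23, 0.33 and 0.27 (adjusted p = 0.0857, 0.0840 and 0.133). MYC rose 1.50-fold to 120.5 ± 0.674 FPKM, and NFE2L2, which encodes the oxidative stress factor NRF2, fell 1.64-fold to 5.97 ± 0.147 FPKM. Of 13 other ATF4 targets 10 fell, and 11 as TPM, where 15.8% and 31.7% of all tested genes did. The median of the 13 targets was -0.65 (-0.996 to -0.70 over the scalings). Over all tested genes the median was 0.05 as deposited and -0.17 as TPM. None of the 13 targets rose in limma, also at an unadjusted p under 0.05 (0 genes) and with voom (0 genes, beside 31.1% of all tested genes). The glutathione-degrading enzyme CHAC1 fell 5.10-fold to 4.83 ± 0.514 FPKM, the leucine transporter chain SLC7A5 2.46-fold and SESN2 2.61-fold. Among the enzymes known as ATF4 targets, PSAT1 and PSPH fell in the same libraries and ALDH1L2 did not pass. PHGDH, SHMT2 and MTHFD2 rose, though MTHFD2 kept its call under only 6 of 13 alternatives. MTHFD1L, which holds the TGATGNAA match, did not pass (limma adjusted p = 0.134). This grouping was made after the values were seen.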

How the data were processed

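The 4 libraries were grouped by sample title, and the deposited table gives coordinates, biotype, exon length and FPKM of each gene, as its file headers state. The submitters' processing notes name the builds GRCm38 and mm10, which are mouse, but all 58735 gene identifiers are human and have the start and end given in GENCODE release 29 (GRCh38). Aligner and counter: not given in the sources used here. Whole reads were recovered from the deposited FPKM, since multiplying by gene length gave multiples of a single step for 100% of nonzero values (tolerance 0.001 of a step). The depth that the deposited FPKM divide by exceeds the recovered reads 1.08 and 1.10 times in shCON and is 0.941 and 0.919 of them in shFAM49B, which equals scaling by median ratios over 20791 genes. At this depth 3 reads in a gene of 1 kb equal 0.162 to 0.200 FPKM.

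Log2(FPKM + 1) was fitted with limma 3.58.1 (R 4.3.3, empirical Bayes with trend, 2-sided) over the 13775 genes whose mean reached 1 FPKM, and p-values were adjusted over all of them by Benjamini-Hochberg, with a threshold of 0.05. The fit has 2 residual degrees of freedom and 3.32 prior ones. Nothing in the labels states whether replicate libraries are separate cultures, and p-values then cover no more than how these 4 samples vary, which may be technical variation alone. Chi-square per gene between replicates was 3.90 in shCON and 3.48 in shFAM49B, above counting noise, so no library was merged. Alternatives changed the pseudocount, the filter, the scaling, the model (voom on recovered reads) or the replicate block, or left out 1 library, with the tested genes held fixed for scalings and left-out libraries. Besides the 10 enzymes and FAM49B, up to 3 genes per list with the smallest p are named, plus pseudogenes, overlapping genes and cell type markers. SFXN1, SRR, MTRR and MAT2B fall outside this rule and were named after their values were seen. Members and lists were chosen with earlier results of these data known. The procedure was tested on simulated data.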

Additional observations from a re-analysis of the deposited data

How the results depend on the processing

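PHGDH, PSAT1, PSPH, MTHFD1 and SHMT2 kept their direction and their side of the threshold under all 13 alternatives, and the counts of enzymes that rose (3 to 5) and fell (2 to 3) stayed within 1.5 times. The MTHFD2 log2 fold change of 0.24 depended on the scaling (-0.10 to 0.18 over the 4 scalings). Without 1 library it was 0.23 to 0.26, so its size moved little, while its call needed all 4 libraries. Libraries with the same replicate number showed no shared deviation across genes (correlation of deviations -0.01). With 2 libraries per group this value cannot tell whether the samples were prepared in pairs. With the replicate block 3429 genes rose and 2036 fell, 1 gene of serine and glycine transport and use rose instead of 2, and 5 purine genes rose instead of 6.

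The filters changed which genes of a list were tested. Where values moved under the other alternatives, the cause was not tested. As TPM, 1597 genes rose and 4362 fell, the enzymes' median was -0.040, SHMT1 was at -0.16, MTHFD1L at -0.040 and GLDC at -0.028, and relative to recovered reads 1722 rose and 4173 fell, with -0.020, -0.14, -0.020 and -0.0090. In both, 1 folate gene rose and 2 fell, 0 glycine cleavage genes and 0 transport genes rose, 5 transport genes fell, 1 purine gene fell and 1 regulator rose, and 2 purine genes rose as TPM and 3 relative to recovered reads. Medians of the folate, transport, methionine, purine and ATF4 target lists were -0.13, -0.27, -0.55, 0.013 and -0.996 as TPM and -0.11, -0.22, -0.50, 0.031 and -0.82 relative to recovered reads. After quantile normalization they were -0.021, -0.14, -0.38, 0.079 and -0.85, the enzymes' median was 0.0067, MTHFD2 was at -0.10, GCSH at 0.0075 and ATF4 at -0.22, 0 glycine cleavage genes, 1 transport gene, 1 purine gene and 1 regulator rose, and 2 regulators fell. After quantile normalization 19.2% of all tested genes rose and 17.8% fell. The log2 differences of the ratios were then 0.27 (SHMT2 to SHMT1), -0.21 (MTHFD1L to MTHFD1), -0.41 (MTHFD2 to MTHFD1), 1.26 (PHGDH to PSAT1), 1.05 (PHGDH to PSPH) and -0.21 (PSAT1 to PSPH). With median ratios over the tested genes the first 4 medians were 0.036, -0.094, -0.36 and 0.18. There 0 glycine cleavage genes and 1 transport gene were higher, where 21.2% of all tested genes were.

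Without a filter 2185 genes rose and 1378 fell (6.67% and 4.21% of 32758 genes), and 0 glycine cleavage genes, 1 transport gene and 1 regulator rose. The transport and methionine medians were -0.092 and -0.13, over 11 and 10 genes. With a filter at 5 FPKM 1322 genes fell, 0 folate genes and 1 transport gene fell, and the folate, transport and ATF4 target medians were 0.16, 0.076 and -1.30. The ATF4 target median was -0.81 with a pseudocount of 0.1 and -0.82 with voom. With voom 2 of 9 tested folate genes fell, where 20.3% of all tested genes did. In the same fit 10 of 13 purine genes rose, where 31.1% of all tested genes did. Without 1 library each, 1897 to 2495 genes rose and 1027 to 1529 fell. The enzymes' median was then 0.088 to 0.23, and the folate, transport, purine and ATF4 target medians 0.038 to 0.14, -0.073 to 0.010 (0.010 without shFAM49B replicate 1), 0.20 to 0.30 and -0.76 to -0.59. In these fits 1 to 2 folate genes, 0 glycine cleavage genes, 0 transport genes and 1 to 2 regulators rose, and 2 to 4 methionine genes fell.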
